A study of Homo sapiens with 6 samples.

Results

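The miR-183/miR-96/miR-182 cluster is a set of 3 neighbouring microRNA (miRNA) hairpins that are transcribed together and cut into separate mature miRNAs. Its members were taken as every measured miRNA whose name begins with hsa-miR-183-, hsa-miR-96- or hsa-miR-182-. This gave 3 of the 449 measured miRNAs, hsa-miR-183-5p, hsa-miR-96-5p and hsa-miR-182-5p, each the 5p arm of its hairpin. No 3p arm of these hairpins was among the 449 measured miRNAs. Small RNA was sequenced from breast cancer stem-like cells (BCSCs), which were enriched by sphere culture from MDA-MB-231, a human breast cancer line of the triple-negative kind, and labelled wild type. Libraries came from BCSCs given 200 μg/mL rosmarinic acid (RA), a plant phenolic acid, for 48 h (3 libraries) and from control BCSCs at 0 μg/mL and 48 h (3 libraries). All libraries derive from 1 cell line. The labels give 3 wells for each treatment and do not say whether each library is 1 well, so every p-value reflects the spread between libraries, which may be technical. The sources disagree on the RNA: the labels name BCSCs as the cell type, as do the study's methods, but the extraction notes in the labels describe brain tissue taken around a haemorrhage. Which RNA was sequenced is therefore given here as labelled.

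The cluster is best known from sensory organs, where the hair cells of the inner ear and the photoreceptors depend on it, and changes in the miR-96 seed cause inherited hearing loss. It is often raised in carcinomas, breast cancer included. A miRNA finds its target messenger RNAs mainly through its seed, the bases from the second to the eighth, so miRNAs with the same seed share predicted targets. miR-182-5p and miR-96-5p are both known to repress the transcription factor FOXO1, and miR-182-5p the DNA repair gene BRCA1.

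The mature sequences of the members are shown because their seeds are close but not identical, with the seed in capitals and the bases 5′ to 3′ (RefSeq, GRCh38.p14). miR-1271-5p, from a hairpin on chromosome 5, comes last because it carries the same seed as miR-96-5p.
miR-183-5p: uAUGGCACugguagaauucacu
miR-96-5p: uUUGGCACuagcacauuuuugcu
miR-182-5p: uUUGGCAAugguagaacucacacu
miR-1271-5p: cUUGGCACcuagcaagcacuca

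The seed of miR-96-5p matched that of miR-182-5p at 6 of 7 bases and that of miR-183-5p at 6 of 7, and the seeds of miR-182-5p and miR-183-5p matched each other at 5 of 7. Over the whole mature miRNA the closest pair was miR-182-5p and miR-183-5p, with the same base at 18 of 22 positions counted from the 5′ end, 12 of them among the 14 positions after the seed. miR-96-5p shared 12 of 23 positions with miR-182-5p and 13 of 22 with miR-183-5p. Among the 404 measured miRNAs with a RefSeq sequence, the letters UGGCA stood within the seed of 5, or 1.24%, the 3 members among them. Those outside the cluster, miR-1271-5p and miR-5588-5p, had 1 read each over all libraries.

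The hairpins lie on the minus strand of chromosome 7 (GRCh38.p14), MIR183 from 129774905 to 129775014, MIR96 from 129774692 to 129774769 and MIR182 from 129770383 to 129770492. MIR183 and MIR96 are 135 bases apart, MIR96 and MIR182 4199 bases, and the cluster spans 4632 bases. GENCODE places no other gene over it. The nearest annotated genes are the non-coding AC084864.1, 8356 bases away, and the protein-coding NRF1, 13301 bases away. The deposited values themselves carry no coordinates.

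Values were deposited as normalized read counts (CPM, scaled to library size with a further factor for each library, so that a library's values summed to 867794 to 1152344), and because each was an exact multiple of what a single read is worth, the reads behind them could be counted. The RA libraries held 176590 to 1158116 miRNA reads and the control libraries 2190324 to 4111404. A single read stood for 0.987 to 5.21 CPM in RA libraries and for 0.233 to 0.526 CPM in control libraries. Depth differed with the group, so its effect and that of RA cannot be told apart. miR-221-3p, abundant in triple-negative lines, was at 6090 to 7136 CPM after RA and 5434 to 6122 CPM in controls, and miR-10b-5p, known for invasion of MDA-MB-231, at 31285 to 54392 CPM after RA and 37093 to 48373 CPM in controls. Of the epithelial miR-200 family, miR-200c-3p was at 2.96 to 5.82 CPM after RA and 3.96 to 5.79 CPM in controls, while miR-200b-3p was at 139.6 to 156 CPM after RA and 145 to 217 CPM in controls. The mesenchymal miR-199a-3p and miR-143-3p averaged 23579 and 11837 CPM over the 6 libraries. miR-9-5p, a brain-rich miRNA, was at 3895 to 6022 CPM after RA and 4880 to 5278 CPM in controls, and miR-219a-5p, from oligodendrocytes, at 0 to 0.987 CPM after RA and 3.49 to 4.21 CPM in controls. miR-451a, a red blood cell miRNA, was at 26.0 to 824 CPM after RA and 5.26 to 33.8 CPM in controls, and the part of other tissues in the values below was not tested. The miRNAs named in this paragraph were picked from all those measured. Which cells or tissue the RNA came from was not tested with them.

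All 3 members were scarce in these cells. miR-182-5p ranked 305th of 449 by its mean over the 6 libraries, at 4.28 CPM, miR-183-5p 339th at 2.79 CPM, and miR-96-5p 369th at 1.46 CPM. miR-182-5p was listed between miR-411-5p at 4.37 CPM and miR-184 at 4.12 CPM, miR-183-5p between miR-29b-1-5p at 2.84 CPM and miR-204-5p at 2.65 CPM, and miR-96-5p between miR-1-3p at 1.48 CPM and miR-4451 at 1.46 CPM. miRNAs with a mean under 10 CPM made up 42.1% of all those measured. The whole cluster rested on 10 reads over the RA libraries and 85 reads over the control libraries.

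**Figure D1:**
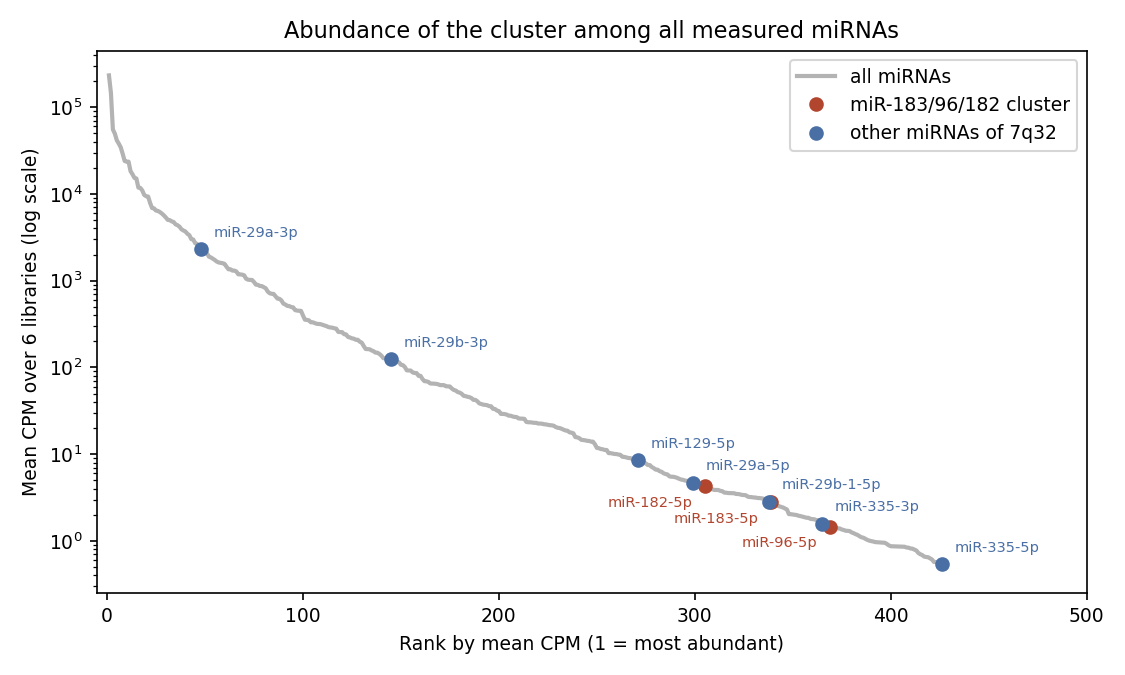
Mean CPM over the 6 libraries (log scale) of all 449 miRNAs against their rank, with the cluster and the other measured miRNAs listed for chromosome band 7q32 as points. The 3 members sit between 1.46 and 4.28 CPM at ranks 305 to 369, far below miR-29a-3p at rank 48.

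miR-182-5p was counted 3, 1 and 0 times in RA replicates 1, 2 and 3, which is 2.96, 5.21 and 0 CPM, against 23, 19 and 3 reads in control replicates 1, 2 and 3, or 12.1, 4.42 and 0.963 CPM. The groups overlapped, since RA replicate 2 lay above control replicates 2 and 3. Its level averaged 2.72 ± 2.61 CPM after RA and 5.83 ± 5.70 CPM in the controls (SD, n = 3 each).

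miR-183-5p was counted 3, 0 and 2 times in RA replicates 1, 2 and 3, which is 2.96, 0 and 5.82 CPM, against 9, 11 and 2 reads in control replicates 1, 2 and 3, or 4.73, 2.56 and 0.642 CPM. Both the highest and the lowest value were in RA libraries. The means were 2.93 ± 2.91 CPM after RA and 2.65 ± 2.05 CPM in the controls (SD, n = 3 each).

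miR-96-5p was counted 1, 0 and 0 times in RA replicates 1, 2 and 3, which is 0.987, 0 and 0 CPM, against 12, 5 and 1 reads in control replicates 1, 2 and 3, or 6.31, 1.16 and 0.321 CPM. The only RA library with a read lay above control replicate 3 and below the other two. The means were 0.329 ± 0.570 CPM after RA and 2.60 ± 3.24 CPM in the controls (SD, n = 3 each).

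**Figure D2:**
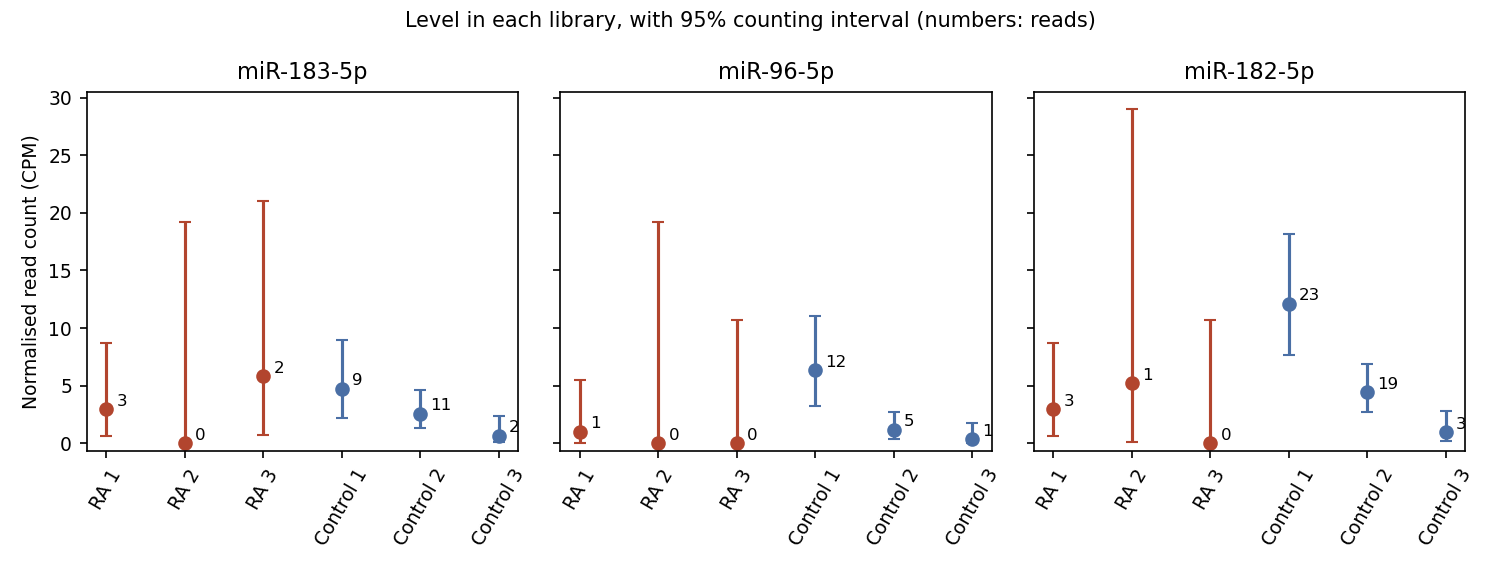
CPM of each member in each library, RA libraries in red on the left and control libraries in blue on the right, with exact 95% Poisson intervals as bars (counting error only) and the number of reads beside each point. The intervals of RA replicate 2 reach 29 CPM for miR-182-5p and 19.2 CPM for the members with no read, above every control value.

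The RA libraries with a count of 0 were the shallowest. A level of 3 reads, which a count of 0 still allows, corresponds to 15.6 CPM in RA replicate 2 and 8.72 CPM in RA replicate 3, against 0.698 CPM in control replicate 2. The highest control value of any member, 12.1 CPM for miR-182-5p, lay under this level in RA replicate 2, which held 1 read of miR-182-5p. It lay above this level in RA replicate 3, where miR-182-5p had 0 reads (exact 95% Poisson upper limit 10.7 CPM). At the pooled rate of the controls, the 3 RA libraries together would have held 7.48 reads of miR-182-5p, 3.66 of miR-183-5p and 2.99 of miR-96-5p, and they held 4, 5 and 1. In bulk RNA, fewer cells that express a miRNA and less of it per cell cannot be told apart.

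RA and control groups were compared with limma on log2(CPM + 1), and p-values were adjusted by the Benjamini-Hochberg method over the 449 miRNAs. None of the 3 members passed an adjusted p of 0.05, where 34 of 449 miRNAs (7.57%) did, 4 of the 189 with a mean under 10 CPM (2.12%) among them. None had an unadjusted p under 0.05, against 21.8% of all miRNAs, and edgeR's quasi-likelihood test, run on the reads, called none of them, against 14.7% of all miRNAs. None of the members lacked overlap between the groups, as 25.8% of all miRNAs did.

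miR-182-5p changed by -0.83 on the log2 scale (standard error 0.92, limma adjusted p = 0.67), with a 95% interval of -2.85 to 1.18. For miR-96-5p the log2 fold change was -1.13 (standard error 0.83, limma adjusted p = 0.49), with an interval of -2.95 to 0.69. For miR-183-5p it was -0.10 (standard error 0.88, limma adjusted p = 0.95), with an interval of -2.02 to 1.81, and edgeR's quasi-likelihood test turned its direction, at 0.34. For each member the interval included changes of over 2 log2 units down as well as no change. Mean CPM was lower after RA for miR-182-5p and miR-96-5p and higher for miR-183-5p, and it was lower for 43.9% of all miRNAs. The median log2 fold change was -0.83 over the members and 0.00 over all miRNAs.

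**Figure D3:**
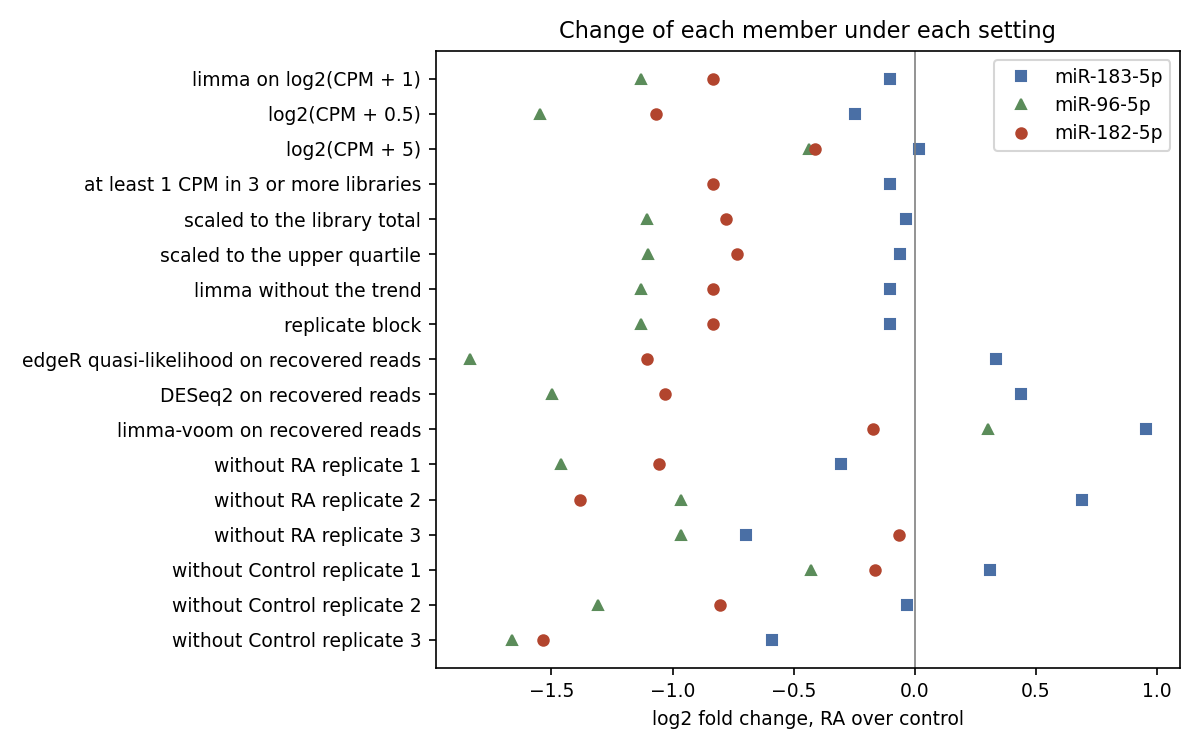
Log2 fold change of RA over control for each member under the reported setting and under each alternative. miR-182-5p stays below 0 throughout, from -1.54 to -0.06, while miR-183-5p lies on both sides of 0.

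With reads pooled over the libraries of a group, the rate of miR-182-5p was 2.58 CPM after RA and 4.83 CPM in the controls, a ratio of 0.534 (95% exact interval 0.140 to 1.47, counting error only). miR-183-5p was at 3.23 CPM after RA and 2.36 CPM in the controls, a ratio of 1.37 (0.404 to 3.70). miR-96-5p was at 0.646 CPM after RA and 1.93 CPM in the controls, a ratio of 0.334 (0.00802 to 2.12). All of these intervals contained 1. The ratios moved with control replicate 1, which held 23 of the 45 control reads of miR-182-5p and 12 of the 18 of miR-96-5p. Without it the ratio of miR-182-5p was 0.870, that of miR-96-5p 0.797 and that of miR-183-5p 1.84. Leaving out control replicate 3 instead moved them down, to 0.381 for miR-182-5p, 0.235 for miR-96-5p and 1.00 for miR-183-5p.

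The members of the shared transcript were then compared with each other. miR-182-5p was the most frequent in every control library, with 52.3% of the cluster's reads in control replicate 1, 54.3% in replicate 2 and 50.0% in replicate 3. The share in control replicate 3 rested on 3 of 6 reads (95% exact binomial interval 11.8 to 88.2). Over the RA libraries miR-182-5p had 4 of 10 cluster reads, or 40.0% (95% exact binomial interval 12.2 to 73.8), against 45 of 85, or 52.9% (41.8 to 63.9), over the control libraries. miR-183-5p had 50.0% (18.7 to 81.3) over the RA libraries and 25.9% (17.0 to 36.5) over the controls. miR-96-5p had 10.0% (0.253 to 44.5) over the RA libraries and 21.2% (13.1 to 31.4) over the controls. The RA and control intervals overlapped for each member. In the controls the interval of miR-182-5p lay above those of the other members, whose own intervals overlapped. miR-96-5p exceeded miR-183-5p in control replicate 1 alone, at 12 and 9 reads.

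To ask whether the members changed by different amounts, the log2 ratio between each pair was taken within each library, with 1 CPM added to both values because of the zeros. The ratio of miR-182-5p to miR-183-5p was 0.00, 2.63 and -2.77 in RA replicates 1, 2 and 3 and 1.19, 0.61 and 0.26 in control replicates 1, 2 and 3. The RA libraries thus lay on both sides of the controls. The difference was -0.73 for miR-182-5p to miR-183-5p (p = 0.70), 0.30 for miR-182-5p to miR-96-5p (p = 0.80) and 1.03 for miR-183-5p to miR-96-5p (p = 0.40, two-sided exact permutation tests, each 0.80 when adjusted over the 3 pairs). With 3 libraries a group this test cannot go below 0.10. Without RA replicate 3 the difference between miR-182-5p and miR-183-5p was 0.63, so that its direction rested on that library.

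The summed level of the cluster varied among the control libraries. It was 6.91, 5.21 and 5.82 CPM in RA replicates 1, 2 and 3, from 7, 1 and 2 reads, against 23.1, 8.15 and 1.93 CPM in control replicates 1, 2 and 3, from 44, 35 and 6 reads. The exact 95% Poisson intervals of the controls, 16.8 to 31.1, 5.68 to 11.3 and 0.707 to 4.19 CPM, did not overlap, and they hold counting error only, not the spread between cultures or PCR copies. The intervals of the RA libraries overlapped each other, from 0.132 up to 29 CPM. Highest over lowest, the summed level differed 1.33-fold among RA libraries and 12.0-fold among controls. Every RA sum lay between control replicates 2 and 3. The summed level differed between the groups by -0.32 on log2(CPM + 1) (two-sided exact permutation p = 0.70), and by 0.42 without control replicate 1.

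All members had their highest control level in replicate 1 and their lowest in replicate 3. Highest over lowest control CPM was 12.6 for miR-182-5p, 7.37 for miR-183-5p and 19.7 for miR-96-5p. Among the 316 miRNAs with at least 18 reads over the controls and reads in each, the median of this ratio was 1.33, and 11 of them (3.48%) reached the 7.37 of miR-183-5p, the 3 members and 8 others. Wide ratios were more frequent at low counts: among the 36 of these with 18 to 45 control reads, the members' own range, the median was 2.33 and 8 (22.2%) reached 7.37, the 3 members and 5 others. The minimum of 18 reads was set at the count of miR-96-5p after its value was seen.

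**Figure D4:**
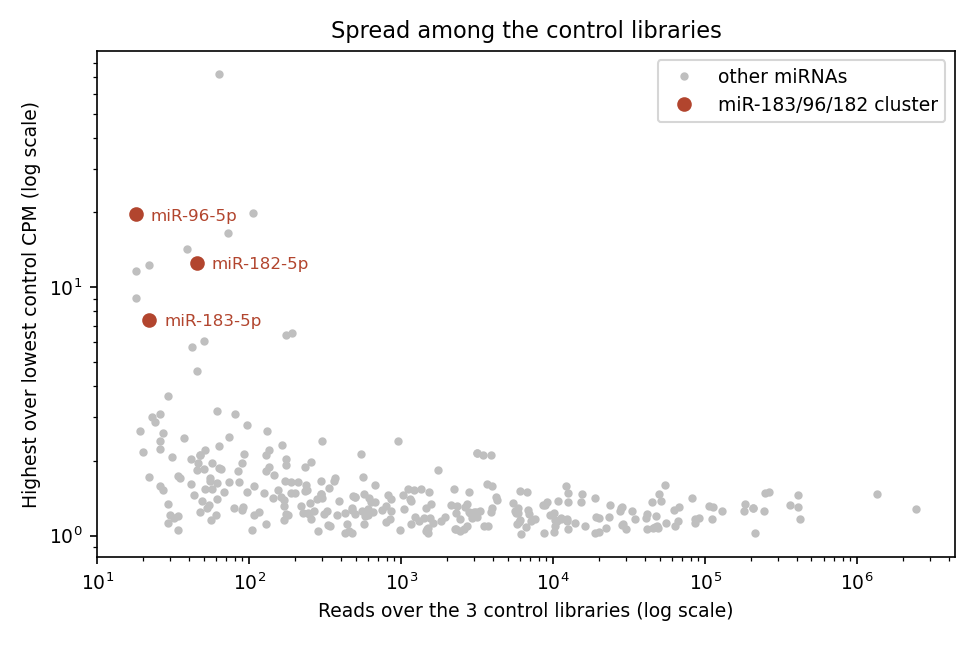
Highest over lowest CPM among the 3 control libraries (log scale) against the reads summed over them (log scale), for the 316 miRNAs with at least 18 control reads and reads in each control library. The members, in red, lie at 7.37 to 19.7, while the median of all is 1.33 and that of the 36 with 18 to 45 control reads is 2.33.

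Over the 6 libraries, the miRNA averaging 10 CPM or more and read in all 6 libraries whose log2(CPM + 1) ran most like that of miR-182-5p was miR-30c-1-3p (Pearson r = 0.79, Spearman rho = 0.71), followed by miR-301a-3p (r = 0.78, rho = 0.89) and miR-365b-5p (r = 0.78, rho = 0.60). For miR-183-5p these were miR-147b-3p (r = 0.91, rho = 1.00), miR-21-3p (r = 0.86, rho = 0.83) and miR-326 (r = 0.82, rho = 0.77). For miR-96-5p they were miR-146b-5p (r = 0.95, rho = 0.93), miR-195-3p (r = 0.87, rho = 0.93) and miR-200b-3p (r = 0.86, but rho = 0.41). They were the 3 closest of 250 candidates for each member over only 6 libraries that differ in depth, and the members' own values rest on 19 to 49 reads, so these are descriptions. No candidate was named for more than 1 member. Between the members themselves r was -0.11 for miR-182-5p and miR-183-5p, 0.74 for miR-182-5p and miR-96-5p, and 0.47 for miR-183-5p and miR-96-5p. Over the 3 control libraries alone, too few to read more from, these were 0.995, 0.961 and 0.930. The RA libraries held 0 to 3 reads of each member.

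Other miRNAs of chromosome band 7q32 spanned a far wider range of levels. Of 10 listed, 7 were measured, and none of them passed in limma, with 0 at an unadjusted p under 0.05 and 0 called by edgeR's quasi-likelihood test. Over all miRNAs these shares were 7.57%, 21.8% and 14.7%. miR-29a-3p, which represses collagen genes, was at 2149 ± 226 CPM after RA and 2449 ± 221 CPM in the controls (SD, n = 3 each), a mean over all libraries 538 times that of miR-182-5p. miR-335-5p, described as a suppressor of breast cancer metastasis, had 1 read over the RA libraries and 1 over the controls. miR-29b-3p can also come from a hairpin on chromosome 1, and miR-129-5p from one on chromosome 11. The median log2 fold change of the 7 was -0.02, against 0.00 over all miRNAs.

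miR-1271-5p, which has the seed of miR-96-5p, was seen once, as 1 read in RA replicate 3 (2.91 CPM).

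Other miRNAs known to repress FOXO1 or FOXO3 were mostly far more abundant than the members. Of 7 listed and measured, none passed in limma, with 1 at an unadjusted p under 0.05 and 2 called by edgeR's quasi-likelihood test, miR-223-3p and miR-370-3p. Over all miRNAs the shares were 7.57%, 21.8% and 14.7%. miR-27a-3p, which acts on FOXO1 in breast cancer cells, was at 7277 ± 800 CPM after RA and 5595 ± 887 CPM in the controls (SD, n = 3 each), which on the log2 scale is a change of 0.39 (limma adjusted p = 0.27). miR-155-5p, which represses FOXO3, was at 225 ± 15.3 CPM after RA and 285 ± 65.1 CPM in the controls (SD, n = 3 each), a log2 change of -0.32 (limma adjusted p = 0.49). miR-223-3p, a miRNA of myeloid cells, was at 3.95, 20.8 and 145 CPM in RA replicates 1, 2 and 3, against 0.526, 3.72 and 0.321 CPM in control replicates 1, 2 and 3 (adjusted p = 0.066 from limma and 0.0053 from edgeR's quasi-likelihood test). miR-370-3p had 7 reads, all in RA replicate 3 (20.4 CPM), and its log2 change in limma was 0.00 without that library. The median log2 fold change of the 7 was 0.37, against 0.00 over all miRNAs.

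Of 7 miRNAs listed for repressing DNA repair genes, 6 were measured, and 1 fell and none rose in limma, where 7.57% of all miRNAs were called. miR-101-3p, which represses ATM, averaged 1411 ± 313 CPM after RA and 3128 ± 420 CPM in the controls (SD, n = 3 each), a log2 change of -1.16 (limma adjusted p = 0.0070). This call ended without RA replicate 3 (adjusted p = 0.12 from limma) or control replicate 1 (adjusted p = 0.082 from limma), while the log2 change was -1.16 without RA replicate 3 and -1.08 without control replicate 1. miR-146b-5p, which like miR-182-5p represses BRCA1, differed by -0.44 on the log2 scale and miR-146a-5p, with the same seed and target, by 0.31, and neither passed (adjusted p = 0.27 and 0.63 from limma). miR-24-3p, which represses the histone H2AX, was at 4916 CPM after RA and 5142 CPM in the controls on average. The median of the 6 was -0.01, against 0.00 over all miRNAs.

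**Figure D5:**
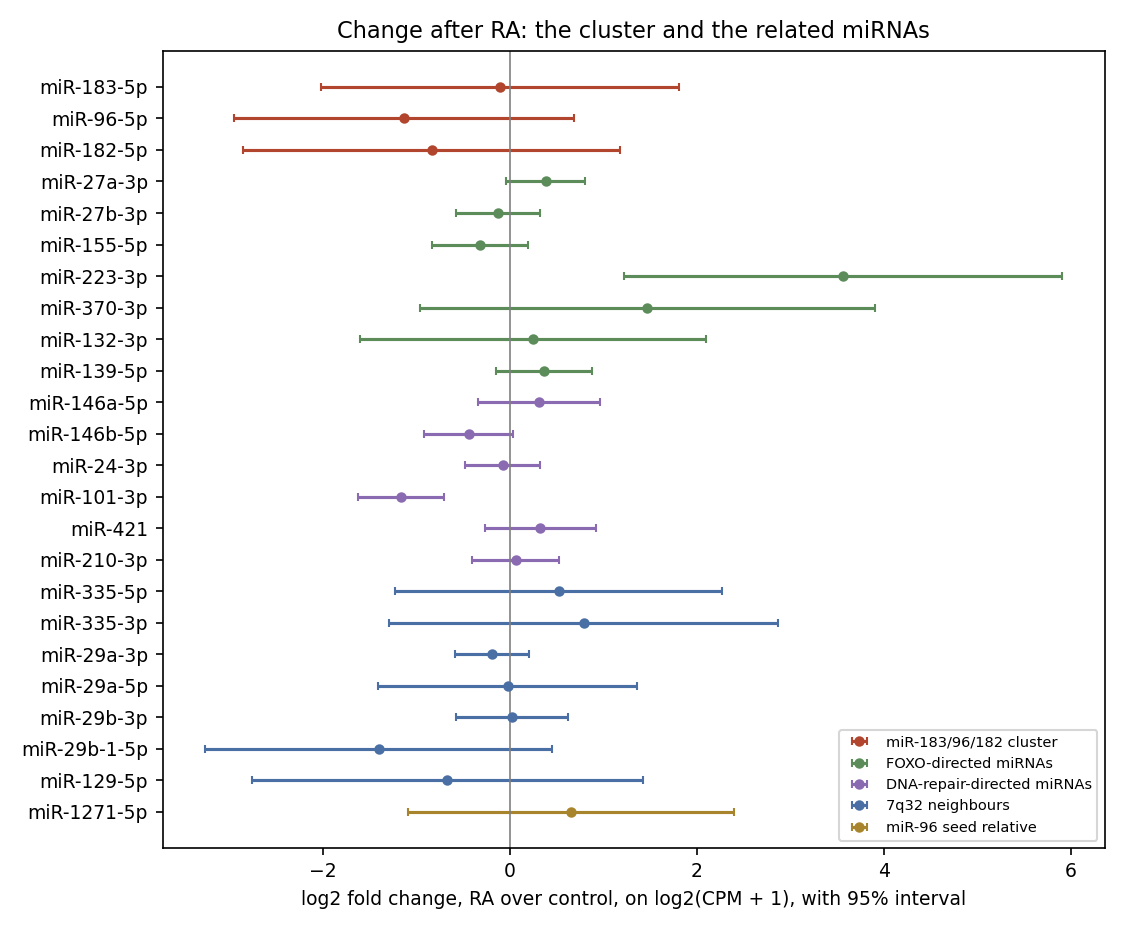
Log2 fold change of RA over control from limma on log2(CPM + 1), with 95% intervals, for the members (top) and the related miRNAs by list. The members' intervals are wide, from -2.95 to 1.81, and include 0, while that of miR-101-3p lies below 0.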

How the data were processed

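The authors deposited, for each mature miRNA and library, a normalized signal named CPM in the file header, and for each group a log2 value of it, which the authors computed and which was not used here. Of the tools and builds, the submitters' processing notes name hg19 alone. For the aligner and counter: not given in the sources used here. Divided by the lowest non-zero value of its library, each of the 2694 values (100%) came out whole to within 0.01 reads, which gave the reads. No 2 libraries were identical.

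In R 4.3.3, limma 3.58.1 with its trend option was applied to log2(CPM + 1) over all 449 miRNAs without a filter, with Benjamini-Hochberg adjustment. The study's methods name a 2-group test in general and none for the sequencing values. Ratios between members were compared with exact permutation tests. The design had planned the plain ratio, which zeros left undefined. Intervals are 95%. Those of the log2 fold changes come from limma and rest on the spread between libraries. The intervals of CPM values, read shares and pooled ratios cover counting error only. PCR reads are not independent molecules. edgeR 4.0.16, DESeq2 1.42.0 and limma-voom on recovered reads, other pseudocounts, scalings and filters, a replicate block and leaving out each library were alternatives. The fits were tested on simulated reads.

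The members, the lists (FOXO-directed, DNA-repair-directed, 7q32 neighbours, miR-96 seed) and the tests were chosen with earlier results of these data known. Named miRNAs were the members, those next to them in mean level, the 3 most alike to each among those averaging 10 CPM or more and read in every library, and the lists. miR-10b-5p, miR-200c-3p, miR-221-3p, miR-451a, miR-5588-5p, miR-9-5p and miR-219a-5p were named after their values were seen. The same holds for miR-199a-3p, miR-143-3p, miR-1248, miR-7704, miR-4531, miR-1469, miR-374c-5p and let-7a-2-3p. The alternatives for miR-96-5p and for its ratios, the pooled rates, the summed level and the spread among controls were added after the data were examined. Depth ranged from 176590 to 4111404 reads a library.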

Additional observations from a re-analysis of the deposited data

How the results depend on the processing

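No member was called under any alternative that tested it. Those for miR-182-5p gave log2 fold changes of -1.54 to -0.06, all below 0 in 16 alternatives, with adjusted p from 0.42 to 1.00. miR-183-5p kept no direction. It was 0.017 with 5 CPM added, 0.34 with edgeR's quasi-likelihood test, 0.44 with DESeq2 and 0.95 with limma-voom, and leaving out 1 library at a time gave -0.70 to 0.69, above 0 without RA replicate 2 or control replicate 1. miR-96-5p was below 0 in 14 of 15 alternatives, and 0.30 with limma-voom. A minimum mean of 10 CPM left none of the members to test, and miR-96-5p was also removed by the filter of 1 CPM in 3 libraries. With 1 library left out, the ratio of miR-182-5p to miR-183-5p differed by -2.07 to 0.63, that of miR-182-5p to miR-96-5p by -0.41 to 0.90, that of miR-183-5p to miR-96-5p by 0.27 to 1.65, above 0 in each of its 9 alternatives, the summed level by -1.10 to 0.42, and the pooled ratio of miR-96-5p was 0.00 to 0.797. The pooled ratio of the summed reads was 0.506 (0.234 to 0.981) without control replicate 3 and 1.17 without control replicate 1, against 0.707 with all. Over all miRNAs, 34 calls became 13 without the trend, 66 with edgeR's quasi-likelihood test, 66 with DESeq2, 77 with limma-voom and 10 to 49 with 1 library left out. The cause of these shifts was not tested.

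The replicate block gave 55 calls and left the members uncalled, with adjusted p of 0.65 to 0.97 from limma. Deviations from the group means correlated at 0.12, -0.19 and 0.13 between same-numbered libraries and at -0.25 to 0.14 between differently numbered ones. With 3 libraries a group these values cannot decide whether the numbers pair the libraries. The median 95% interval was 3.83 log2 units wide for the members, 3.68 for miRNAs of 1 to 10 CPM and 1.30 for miRNAs of at least 10 CPM.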

Other observations

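miR-122-5p, a liver miRNA named after its value was seen, had its highest control level in the same library as the cluster. It was at 9493, 5.21 and 0 CPM in RA replicates 1, 2 and 3, against 32.1, 9.31 and 1.61 CPM in control replicates 1, 2 and 3. miR-451a and miR-223-3p had their highest control levels in control replicate 2, at 33.8 and 3.72 CPM. Of the other miRNAs whose control ratio reached 7.37, miR-1248, miR-7704, miR-4531 and miR-1469 also peaked in control replicate 1. miR-374c-5p and let-7a-2-3p peaked in control replicate 2. The share of all miRNAs that peaked in control replicate 1 was not counted, so the match of miR-122-5p is a description only. The part of other tissues' RNA in the cluster's values was not tested.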
